A study of Rattus norvegicus with 8 samples.

Results

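The iodide response of thyroid cells carrying the L629F receptor was taken from 4 of the 8 arrays of the series, namely every array whose label names that receptor. FRTL-5 is a rat thyroid follicular cell line, here its SB5 sub-clone, and the cells stably expressed the human thyrotropin (TSH) receptor with the substitution L629F, which activates the receptor without hormone. Cells of 2 arrays had received 1 mM sodium iodide (iodide arrays) and cells of the other 2 had received 1 mM sodium chloride as a salt control (chloride arrays). Cells of all 4 groups were grown in 5 mU/ml bovine TSH, so the L629F receptor was studied here in the presence of hormone. The other 4 arrays hold the same 2 treatments in cells with the wild type human receptor and serve below only for comparison. The series addressed how iodide alters transcripts in a cell model of thyroid autonomy, in which thyroid cells work without control by TSH. There was 1 line per receptor, the labels give no duration of treatment, and they do not say whether replicate arrays came from separate cultures. The p-values therefore measure only the spread between these arrays, which may be technical.

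TSH acts on follicular cells through its receptor and cyclic AMP, and so drives iodide uptake, thyroglobulin synthesis and growth. Iodide itself acts back on the gland: a high iodide level is known to reduce hormone synthesis and iodide transport, a form of autoregulation that also operates in cultured thyroid cells. Fatty acid and cholesterol synthesis are controlled by the transcription factors SREBP1 and SREBP2, and sterol export by the liver X receptors (LXR).

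The deposited values were MAS5 signals of 31099 probe sets, and 10046 genes were tested after dim probe sets and those without a single gene symbol had been left out. Median signals ran from 138.4 to 147.5 on the 4 L629F arrays. Across genes, the log2 signals of the 2 chloride arrays correlated at 0.975 and those of the 2 iodide arrays at 0.972, while pairs made of 1 array of each kind correlated at 0.968 to 0.975. For GAPDH, the signal of the 3′ control probe set over that of the 5′ one, a measure of RNA integrity that is higher in degraded RNA, was 1.54 and 2.17 on the chloride arrays and 2.27 and 2.49 on the iodide arrays, so the groups did not overlap. The same ratio was 1.76 and 4.27 against 8.92 and 4.61 for hexokinase, again without overlap, and 5.93 and 7.90 against 5.95 and 6.48 for beta-actin, where the groups overlapped. The part of RNA integrity in the results was not tested beyond a fit with the GAPDH ratio as a covariate. Of 16 follicular cell markers, 15 had a probe set and 11 passed the filter on dim signals. Their summed signal was 52452 and 56937 without iodide and 54974 and 56936 with it, whereas Epcam (4.28 to 46.8) and Krt18 (66.8 to 91.1) were too dim to be tested. The rat Tshr probe set gives no check on the introduced human receptor. Markers of other cell types had low summed signals on all 4 arrays: 818 to 891 for 9 C cell genes, 517 to 641 for 10 fibroblast genes, 565 to 762 for 9 endothelial genes and 775 to 933 for 13 leucocyte genes. Among their defining genes Dcn stayed at 2.84 to 9.39 and Chga at 4.58 to 6.195, while Ptprc was at 4.11 to 11.2 on 3 arrays and at 116.3 on iodide replicate 1. Other members were brighter, and 3 C cell, 3 fibroblast, 2 endothelial and 3 leucocyte genes passed the filter. Of these, Chgb was at 261 to 351, Syp at 92.0 to 216, Slc18a2 at 109 to 202, Col1a1 at 116 to 186 and Esam at 129 to 323.

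Iodide lowered 8 transcripts in L629F cells and raised 1. The transcripts that fell included 3 of fatty acid metabolism (Thrsp, Scd and Acsl1), the cholesterol exporter Abca1, the laminin chain Lamb3, and Tnnt2, Cpe and Smtnl2, and the one that rose was the proglucagon gene Gcg. These 9 passed an adjusted p of 0.05 (limma, Benjamini-Hochberg over all 10046 genes), which is 0.0796% of the genes tested for the lower direction and 0.00995% for the higher. At an unadjusted p under 0.05, 448 genes (4.46%) were lower and 374 (3.72%) higher. Of all 10046 genes, 5158 had a positive and 4888 a negative change. The counts in gene lists below are to be read beside these shares, and some lie near them. Both iodide signals lay below both chloride signals for 1859 genes (18.5%) and above them for 2027 (20.2%), so separate groups alone are common among 2 against 2 arrays. All changes below are differences of log2(signal + 35.3), iodide minus chloride, with the standard error (SE) of the fit. In bulk RNA, fewer cells of a type and less RNA per cell cannot be told apart. No gene passed without chloride replicate 1 or without chloride replicate 2 of the L629F cells (659 and 692 genes at an unadjusted p under 0.05), 2 passed without iodide replicate 1 (Gcg and Ddit4) and 1 without iodide replicate 2 (Phf14), each time with the remaining array of the group assumed to vary like the other groups. Without either wild type chloride array, or when the 4 L629F arrays were fitted alone, 3 genes passed, namely Gcg, Scd and Thrsp. With the GAPDH ratio as a covariate the count was 30, and these included all 9.

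Thrsp, which encodes the nuclear protein Spot 14 and is known to follow lipid synthesis, had signals of 4578 and 4400.2 on the chloride arrays and 1804 and 1980 on the iodide arrays (probe set 1371400_at). The highest iodide value was thus far below the lowest chloride value. Thrsp fell by 1.23 ± 0.15 (SE) on the log2 scale, to 0.421 of its mean chloride signal, with an adjusted p of 0.00955. The same gene has 2 other probe sets, whose changes were -1.34 and -1.51. Scd, the stearoyl-CoA desaturase that makes monounsaturated fatty acids, had signals of 1260.1 and 1409 without iodide against 477 and 481 with it (probe set 1370355_at). The iodide pair was tight and well apart from the chloride pair, and Scd fell by 1.41 ± 0.22, to 0.359 of its chloride signal (adjusted p = 0.0327). Acsl1, a ligase that activates long-chain fatty acids with coenzyme A, measured 3787 and 3747 without iodide and 1867 and 2134 with it (probe set 1370939_at). It fell by 0.90 ± 0.14 (adjusted p = 0.0285), with a change of -0.73 on its other probe set.

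Abca1, the membrane transporter that passes cholesterol to apolipoproteins and a known LXR target, had signals of 2734 and 3148 on the chloride arrays and 1400.2 and 1549 on the iodide arrays (probe set 1383355_at). The groups did not overlap, and the ratio of their means was 0.501. Abca1 fell by 0.98 ± 0.14 (adjusted p = 0.0285), with changes of -1.17, -0.97 and -0.92 on its 3 other probe sets.

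Gcg encodes proglucagon, the precursor of glucagon and of the glucagon-like peptides, and its signal was 2176 and 2152 without iodide and 4501 and 5539 with it (probe set 1369888_at). It was the only gene past the threshold in the higher direction, both iodide values exceeded both chloride values, and the means differed 2.32-fold. The change of Gcg was 1.19 ± 0.14 with the smallest adjusted p of the comparison, 0.00709. Cpe, carboxypeptidase E, which trims basic residues from prohormones, moved the other way: 6459 and 6012 without iodide, 3299 and 3716 with it, a fall of 0.83 ± 0.14 (adjusted p = 0.0443). Of 15 listed genes of proglucagon and prohormone processing, which include Gcg itself, 7 could be tested. Gcg and Cpe were those past the threshold (over all genes 0.00995% higher and 0.0796% lower). The list was chosen with earlier results of these data known, so this count is no separate evidence for the pathway. Furin, a protease that cuts many precursors, had a change of 0.15 and Cpz, another carboxypeptidase, one of -0.80 (adjusted p = 0.345). Calca, which marks the C cells of the thyroid, stayed at signals of 20.4 to 86.6 on the 4 arrays.

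Lamb3, the beta-3 chain of the basement membrane protein laminin-332, had signals of 787 and 984 without iodide and 385 and 349 with it (probe set 1391022_at). Its chloride pair spread more than its iodide pair, but the groups were separate, and Lamb3 fell by 1.19 ± 0.20 (adjusted p = 0.0443). Smtnl2, a member of the smoothelin family, fell from 1584 and 1476 to 748 and 751 (change -0.99 ± 0.16, adjusted p = 0.0443), with a change of -1.09 on its other probe set. Tnnt2, known as the troponin T of heart muscle, fell from 5566 and 5618 to 2925 and 3314 (change -0.84 ± 0.13, adjusted p = 0.0285). In these 3 genes no iodide value reached any chloride value.

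**Figure D1:**
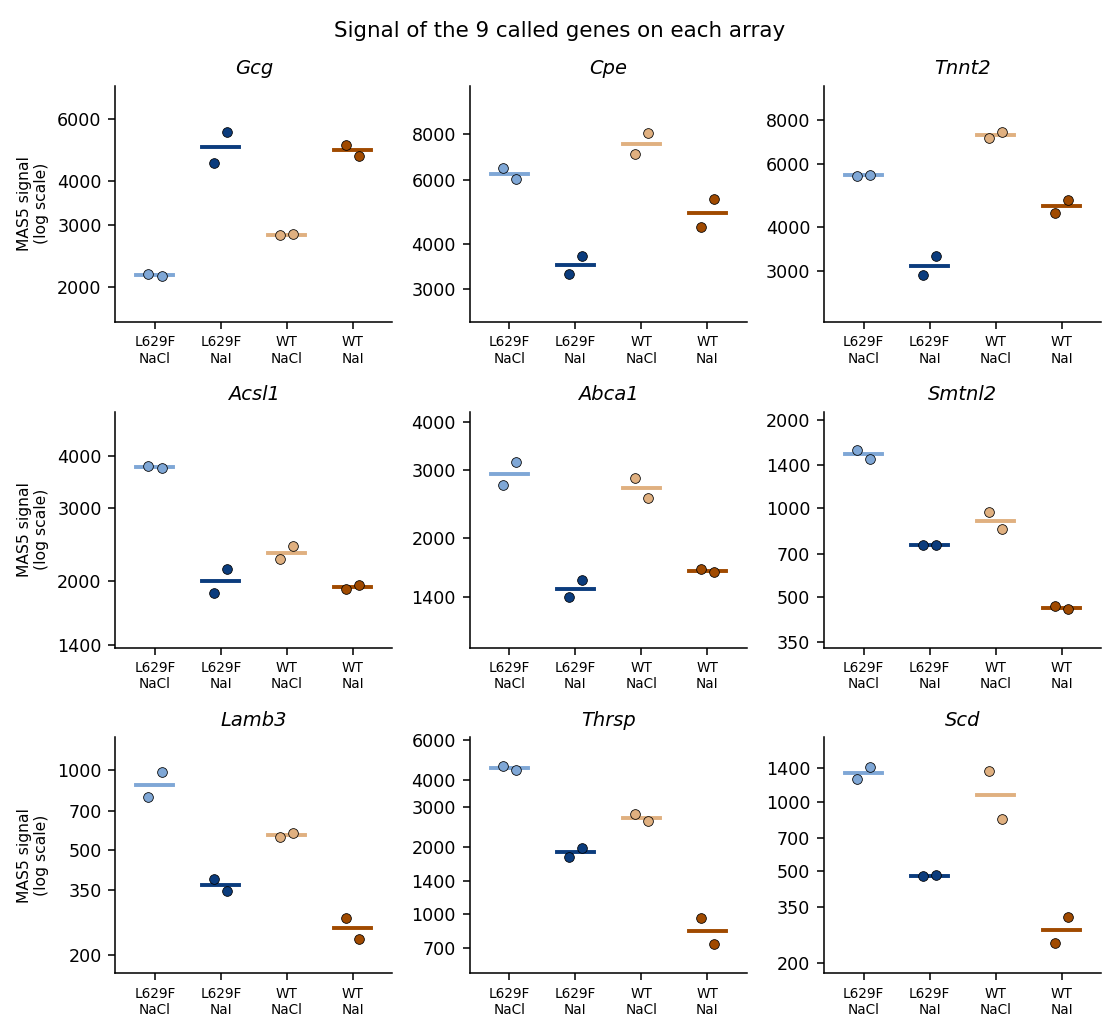
MAS5 signal (log scale) of the 9 called genes on each of the 8 arrays, with 2 points per group and a bar at their geometric mean. In L629F cells (blue) Gcg is higher on both iodide arrays, near 4501 and 5539 against 2176 and 2152, and the other 8 genes are lower on both iodide arrays. The wild type arrays are in brown.

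The promoters of called genes are given next, because 8 of these genes fell together and short motifs can be compared between them. All 9 had a RefSeq window (GRCr8) of 250 bases before to 50 bases after the annotated start, with 2 windows for Tnnt2. The 5 shown are those of the 9 genes in which any of 5 short motifs was found on either strand, and capitals mark the motif letters. They are Thrsp (chr1:161138915-161139214, minus strand), Acsl1 (chr16:52532343-52532642, minus), Abca1 (chr5:72596424-72596723, minus), Lamb3 (chr13:107362303-107362602, plus) and Gcg (chr3:67531484-67531783, minus), each written 5′ to 3′ in the direction of its gene.
Thrsp: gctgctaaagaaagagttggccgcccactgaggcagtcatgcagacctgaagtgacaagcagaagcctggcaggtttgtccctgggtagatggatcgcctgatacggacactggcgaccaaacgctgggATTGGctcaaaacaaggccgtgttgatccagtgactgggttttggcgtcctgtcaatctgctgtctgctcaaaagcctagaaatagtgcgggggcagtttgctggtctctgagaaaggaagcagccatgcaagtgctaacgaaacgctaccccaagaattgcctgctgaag
Acsl1: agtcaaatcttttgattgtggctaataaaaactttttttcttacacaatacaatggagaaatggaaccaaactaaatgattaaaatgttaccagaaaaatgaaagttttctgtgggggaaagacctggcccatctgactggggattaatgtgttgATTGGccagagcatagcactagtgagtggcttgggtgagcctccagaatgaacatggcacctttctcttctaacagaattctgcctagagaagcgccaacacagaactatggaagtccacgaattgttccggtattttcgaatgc
Abca1: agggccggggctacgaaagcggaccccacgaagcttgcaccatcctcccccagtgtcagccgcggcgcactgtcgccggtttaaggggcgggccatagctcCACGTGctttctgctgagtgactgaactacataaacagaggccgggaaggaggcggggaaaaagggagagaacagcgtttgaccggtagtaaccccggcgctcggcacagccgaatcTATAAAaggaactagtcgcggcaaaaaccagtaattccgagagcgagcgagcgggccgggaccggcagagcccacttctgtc
Lamb3: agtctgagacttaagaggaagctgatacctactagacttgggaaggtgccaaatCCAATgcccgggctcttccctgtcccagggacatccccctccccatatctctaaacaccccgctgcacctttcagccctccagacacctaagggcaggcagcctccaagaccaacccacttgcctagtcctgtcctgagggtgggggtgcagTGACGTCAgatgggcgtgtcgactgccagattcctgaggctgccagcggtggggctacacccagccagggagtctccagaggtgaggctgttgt
Gcg: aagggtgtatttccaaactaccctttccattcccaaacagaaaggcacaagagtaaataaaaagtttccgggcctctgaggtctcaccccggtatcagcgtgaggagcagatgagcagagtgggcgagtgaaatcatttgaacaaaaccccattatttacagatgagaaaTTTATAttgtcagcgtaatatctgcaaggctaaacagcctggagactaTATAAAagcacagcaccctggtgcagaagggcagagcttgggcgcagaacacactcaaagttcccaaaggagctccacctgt
The motifs searched were CCAAT (the CCAAT box), CACGTG (an E-box), CACCCCAC (the core of the sterol regulatory element), TGACGTCA (the cyclic AMP response element) and TATAAA (the TATA box). No 2 matches overlapped. CCAAT was in 3 of the 9 genes, on the reverse strand from 121 bases before the start of Thrsp and 95 before that of Acsl1, and on the forward strand 196 before that of Lamb3. Of all 33469 windows, 37.5% held it. CACGTG was in 1 of the 9 (Abca1, 149 bases before the start) and in 6.42% of all windows, and TGACGTCA in 1 (Lamb3, 44 bases before) and in 1.83%. TATAAA was in 2 of the 9, Gcg and Abca1, in each 32 bases before the start, and in 14.2% of windows. Gcg also had it in reverse 80 bases before the start. CACCCCAC was in 0 of the 9 and in 2.70% of windows. Scd, Smtnl2, Tnnt2 and Cpe held none of these letters in the windows given.

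Fatty acid synthesis was the list with the most called genes. Of 27 listed genes of this pathway and its supply, 24 were tested, 3 fell past the threshold and none rose (over all genes 0.0796% and 0.00995%). This list too was chosen with earlier results of these data known, so its counts are no separate evidence for the pathway. Their median change was -0.38, against 0.01 over all genes tested, and 20 of the 24 had a negative change. At an unadjusted p under 0.05 there were 12 lower and 1 higher (over all genes 4.46% and 3.72%). The higher one was Acsl5 with 0.43, but its other probe set gave -0.11. Srebf1, which encodes SREBP1, had signals of 3483 and 3272 without iodide against 2204 and 2081 with it, and those of Acly, which makes cytosolic acetyl-CoA from citrate, were 6716 and 7037 against 4303 and 4506. In both genes the groups were separate, but neither passed the threshold: the changes were -0.65 ± 0.19 (adjusted p = 0.335) for Srebf1 and -0.64 ± 0.14 (adjusted p = 0.153) for Acly. For Acss2, which makes acetyl-CoA from acetate, the change was -0.64 (adjusted p = 0.153). Further along the pathway, the change was -0.53 for the fatty acid synthase Fasn, -0.50 for the acetyl-CoA carboxylase Acaca and -0.78 for the elongase Elovl6, with adjusted p-values of 0.350, 0.376 and 0.183. A dimmer probe set gave -0.76 for Fasn and -0.44 for Elovl6, but only -0.01 for Acaca.

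The genes of cholesterol synthesis had mostly negative changes, but no call. All 18 named genes of the pathway passed the filter, of 21 listed,, of which none passed the threshold. The median change was -0.21, 15 were negative, and 5 had an unadjusted p under 0.05, all lower (over all genes 4.46% lower). The 4 of smallest p were Lss, Acat2, Fdps and Nsdhl, enzymes from the start to the late steps of the pathway, with changes of -0.73, -0.53, -0.37 and -0.45. Lss, the cyclase that forms lanosterol, had signals of 729 and 624 without iodide and 396 and 388 with it, and an adjusted p of 0.270. Among 8 tested genes of sterol uptake and SREBP2 control the median was -0.14 and none passed. Insig2 and Insig1, which hold SREBP in the endoplasmic reticulum, had changes of -0.63 and -0.39, but a dimmer probe set of Insig2 gave -0.18. Mylip, which marks the LDL receptor for breakdown, had -0.55, and Scap, the SREBP escort, 0.33. Srebf2 itself, the gene of SREBP2, read 1135 and 1703 without and 1185 and 1929 with iodide, so its groups overlapped.

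Genes known as LXR targets or for sterol export had a median change of -0.34 over 11 tested of 12 listed. Of these, 1 was called lower (Abca1), against 0.0796% of all genes. At an unadjusted p under 0.05, 4 were lower (over all genes 4.46%). Apoc2, an apolipoprotein that activates lipoprotein lipase, had signals of 331 and 388 without iodide and 129 and 122 with it. The transporter gene Abcg1 read 543 and 579 without and 244 and 273 with iodide. Their groups were widely separate, and the changes were -1.29 ± 0.27 (adjusted p = 0.148) and -1.02 ± 0.22 (adjusted p = 0.153). A dimmer probe set of Abcg1 gave only -0.23. Apoc1, of the same apolipoprotein cluster, had a change of -0.64 (adjusted p = 0.185), and the receptor genes Nr1h3 and Nr1h2 had -0.20 and 0.11.

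**Figure D2:**
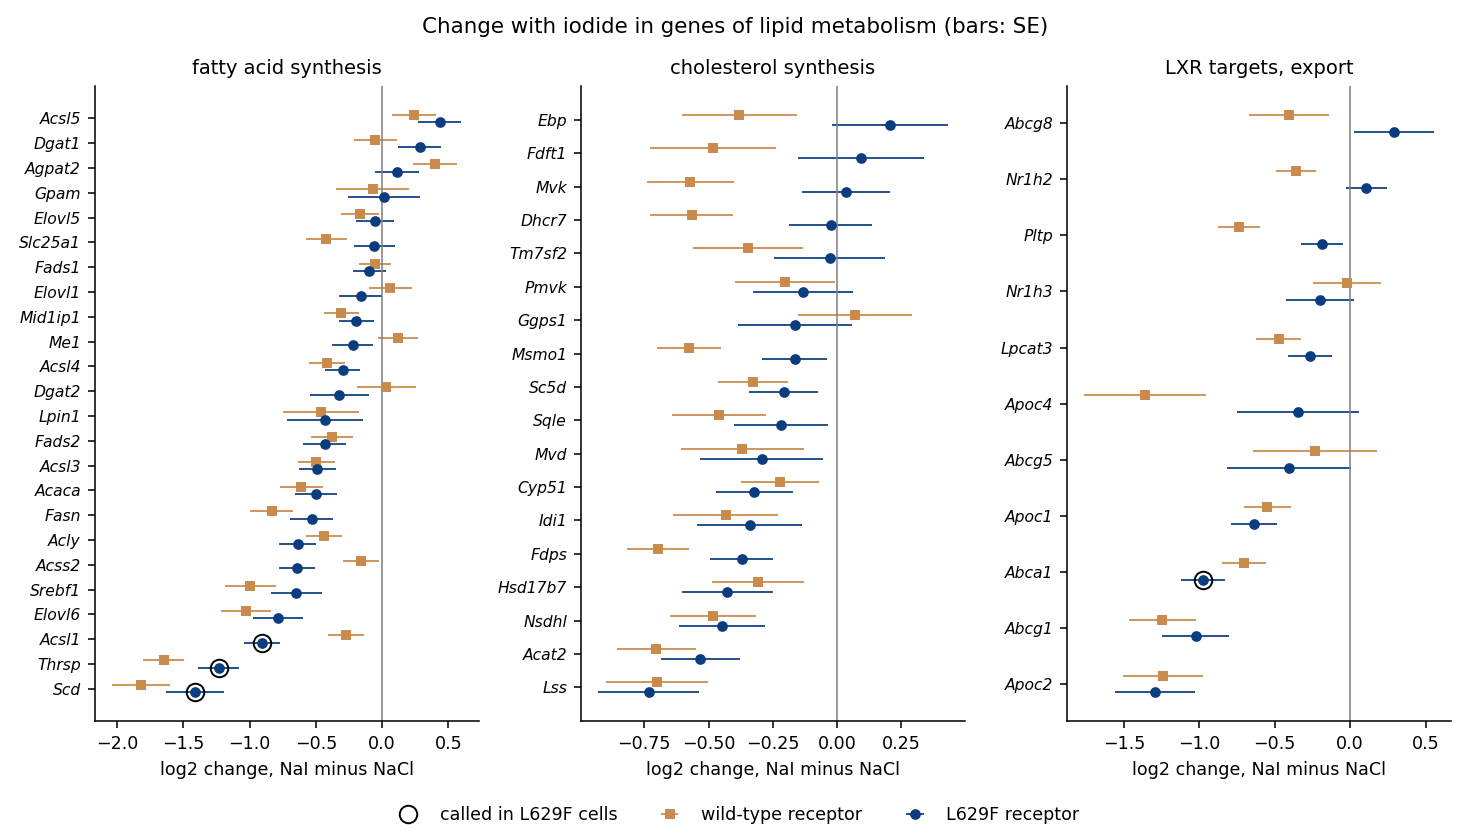
Log2 change with iodide (iodide minus chloride, bars SE) of each tested gene of 3 lipid lists, in L629F cells (blue circles) and wild type receptor cells (brown squares), in order of the L629F change. Rings mark the 4 genes called in L629F cells: Scd, Thrsp and Acsl1 among 24 of fatty acid synthesis and Abca1 among 11 LXR and export genes. None of the 18 of cholesterol synthesis is ringed.

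Among the genes nearest to the threshold were 2 that respond to stress and low oxygen. Ddit4, an inhibitor of the growth kinase complex mTORC1, had signals of 2534 and 2504 without iodide and 1395 and 881 with it, a change of -1.16 ± 0.20. Bnip3, a receptor for the removal of mitochondria, had 4773 and 4275 without and 2084 and 2814 with iodide, a change of -0.89 ± 0.16. Both pairs were separate, and both genes had an adjusted p of 0.0539, just short of the threshold. Of 26 tested genes of glycolysis and the hypoxia response, which include Bnip3, the median was -0.09. There were 3 lower at an unadjusted p under 0.05 (Bnip3, Bnip3l and Egln3) and 1 higher (Pgk1, a glycolytic kinase). Over all genes the shares were 4.46% and 3.72%, so the higher count is near the share of all genes. Pgk1 had a change of 0.27, but its other probe set gave -0.02. Ddit4 stands on the list of ATF4 and amino acid genes, where 29 tested members had a median of 0.11, or 0.04 after quantile scaling, with 3 higher and 3 lower at that level. The tRNA synthetase gene Aars1 and the amino acid carrier Slc7a1 had changes of 0.47 and 0.40, and Psph, of serine synthesis, one of -0.44.

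In the higher direction, the genes of smallest p below Gcg did not pass. Etnk1, the kinase that starts phosphatidylethanolamine synthesis from ethanolamine, had signals of 4372 and 4119 without iodide and 6709 and 6663 with it. Its groups were tight and separate, with a change of 0.65 ± 0.12 (adjusted p = 0.0590) and of 0.78 on its other probe set. Nrip3 had a change of 0.75 (adjusted p = 0.0765), but of 0.16 and 0.49 on its 2 dimmer probe sets. The change was 0.78 for the lysosomal membrane gene Tmem192 and 1.11 for the kinase gene Pask (adjusted p = 0.153 and 0.196). The other genes named by this rule belong to the cell cycle or to cyclic AMP signalling. They were Rrm1 (0.57), Nuf2 (0.62), Hjurp (0.62) and Lig1 (0.56), and Nr4a3 (1.10), with adjusted p-values of 0.153 to 0.189.

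Cell cycle genes were nearly all on the higher side, by small amounts and with none past the threshold. Of 44 listed genes of DNA replication, 38 were tested and 35 of these had a positive change, against 5158 of 10046 over all genes. The median was 0.25, with 10 higher and 0 lower at an unadjusted p under 0.05 (over all genes 3.72% and 4.46%). Rrm1, the large subunit of the ribonucleotide reductase that supplies deoxynucleotides, had signals of 4555 and 4217 without iodide and 6531 and 6537 with it. The iodide arrays of Rrm1 lay well above the chloride arrays, as did those of Mcm5, a subunit of the replicative helicase (1445 and 1352 against 2349 and 2073, change 0.65, adjusted p = 0.276). Lig1, the ligase that joins Okazaki fragments, had 1768 and 1975 without and 2797 and 2729 with iodide. Orc1, of the origin recognition complex, had a change of 1.07 ± 0.31 from dim and uneven chloride signals of 253 and 128. Of 35 tested mitotic genes 31 had a positive change, the median was 0.23 and 11 were higher and 0 lower at an unadjusted p under 0.05. Nuf2, of the kinetochore, read 2517 and 2380 without iodide and 4162 and 3426 with it. The anaphase activator Cdc20, the kinase Plk1 and the ubiquitin-conjugating enzyme Ube2c had changes of 0.47, 0.41 and 0.41. Dimmer probe sets of Cdc20 disagreed, with -0.03, 0.05, 0.24 and 0.81.

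Genes for making proteins stood on the same side. Of 51 tested genes of ribosome biogenesis, 41 had a positive change and the median was 0.26. At an unadjusted p under 0.05, 19 were higher and 0 lower (over all genes 3.72% and 4.46%). The nucleolar protein gene Nop56 had signals of 2600 and 2606 without iodide and 3929 and 3764 with it, a change of 0.56 (adjusted p = 0.256), and the helicase gene Ddx27 had one of 0.67 (adjusted p = 0.253). The 25 tested cytosolic ribosomal protein genes had a median of 0.27, but of 0.02 after quantile scaling, and the 45 respiratory chain genes one of 0.15, which became 0.03. The size of these 2 medians therefore rests on the scaling. Of 26 heat shock and chaperonin genes, 22 had a positive change (median 0.12, and 0.08 after quantile scaling). The chaperonin genes Hspd1 and Tcp1 had changes of 0.44 and 0.45 (adjusted p = 0.253 and 0.260), and Cct5 and Cct2, of the same cytosolic complex as Tcp1, had 0.39 and 0.34.

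**Figure D3:**
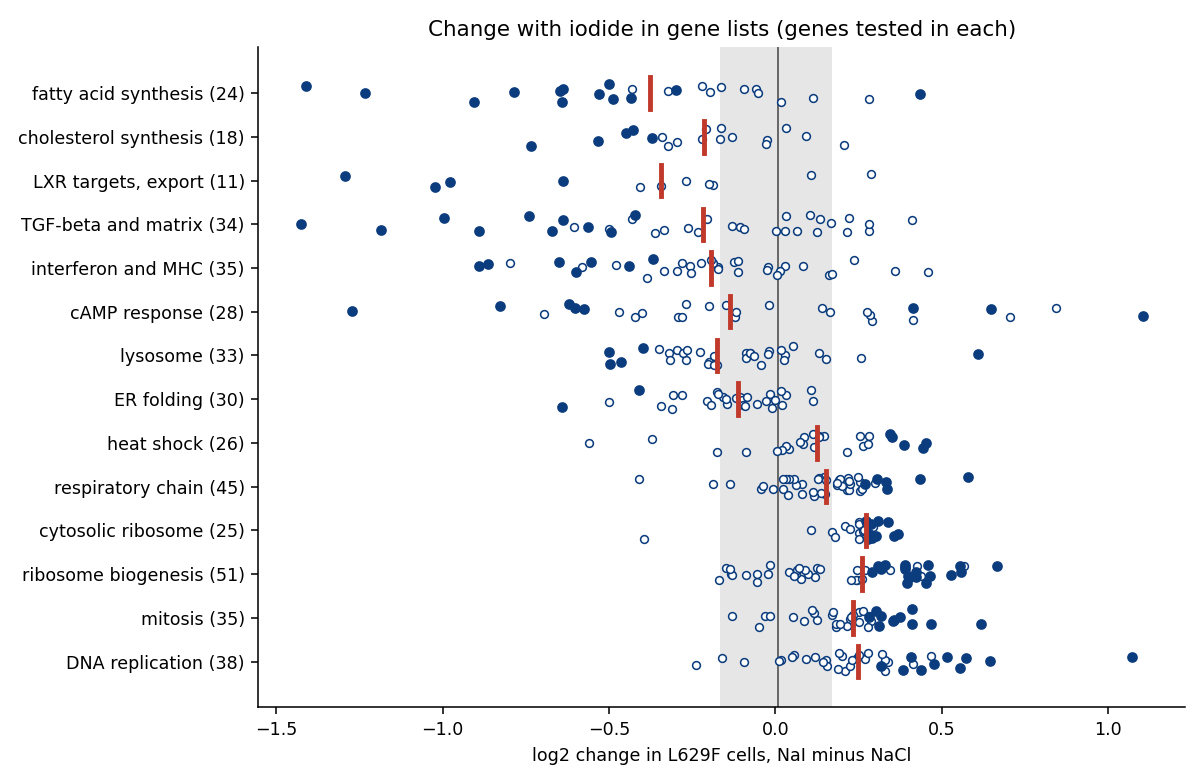
Log2 change with iodide in L629F cells of each tested gene in 14 lists, with the number tested in brackets; filled points have an unadjusted p under 0.05, red bars are list medians, and the grey band spans the middle 50% of all genes (-0.16 to 0.17) around their median line. The medians of the lipid and matrix lists (-0.38 to -0.21), of interferon and MHC (-0.19) and of the lysosome (-0.17) lie left of the band. Those of DNA replication, mitosis, ribosome biogenesis and the cytosolic ribosome lie right of it, between 0.23 and 0.27.

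Of 34 tested genes of the extracellular matrix and TGF-beta signalling, 21 had a negative and 13 a positive change. Lamb3 was called lower (over all genes 0.0796%), and the median was -0.22. At an unadjusted p under 0.05, 10 were lower and 0 higher (over all genes 4.46% and 3.72%). Fn1, the gene of fibronectin, had signals of 1271 and 1736 without iodide and 664 and 798 with it. Its chloride arrays differed from each other but stayed above both iodide arrays (change -0.99 ± 0.21, adjusted p = 0.153). The change was -0.74 for the laminin chain Lamb2 (adjusted p = 0.161) and -0.89 for the secreted protein gene Spp1 (adjusted p = 0.288). The summed fibroblast markers, whose part was not tested, were 541 and 539.9 without and 641 and 517 with iodide.

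Cyclic AMP response genes went both ways. Over 28 tested the median was -0.14 and none passed the threshold. At an unadjusted p under 0.05, 3 were higher and 5 lower (over all genes 3.72% and 4.46%). Nr4a3, an orphan nuclear receptor induced by cyclic AMP in thyroid cells, had signals of 132 and 88.6 without iodide and 276 and 273 with it, and Areg, the growth factor amphiregulin, had 853 and 710 without and 1302 and 1180.1 with it. In both the iodide arrays were the higher ones (changes 1.10 and 0.65, adjusted p = 0.183 and 0.237). Junb, a component of the AP-1 transcription factor, read 184 and 107 without iodide and 40.03 and 35.63 with it. Both iodide signals were below the filter limit of 65.4 and near the pseudocount of 35.3. The filter used the mean over all 8 arrays, so Junb passed it through its brighter arrays. Its change was -1.27 ± 0.33 (adjusted p = 0.253) and that of its partner Jun -0.58 (adjusted p = 0.292). Other probe sets of Jun disagreed, with -0.28 and 0.18.

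Genes of antigen presentation and the interferon response had a median of -0.19 over 35 tested, with none past the threshold. At an unadjusted p under 0.05, 7 were lower and 0 higher (over all genes 4.46% and 3.72%). Cd74, the invariant chain of MHC class II, had signals of 2384 and 3337 without iodide and 1758 and 1813 with it. RT1-Da, a class II alpha chain of the rat, had 936 and 837 without and 494 and 431 with it. In both genes the groups were separate, with changes of -0.65 and -0.89 (adjusted p = 0.253 and 0.263). Ifi44l and the peptide loading gene Tapbp had changes of -0.86 and -0.60. Among 33 tested lysosomal genes (median -0.17) 4 were lower and 1 higher at an unadjusted p under 0.05. The cathepsins Ctsh and Ctsd, proteases of the lysosome, had changes of -0.50 and -0.50, Man2b1, a mannosidase, had -0.46, and the glycoprotein gene Gpnmb had 0.61. Of 30 tested genes of folding in the endoplasmic reticulum, 25 had a negative change (median -0.11), against 4888 of 10046 over all genes. At an unadjusted p under 0.05, 2 were lower and 0 higher, so the lower count is near the share of all genes (4.46%). The disulphide isomerase Pdia4 (-0.64) and the co-chaperone Dnajb9 (-0.41) had the smallest p of this list.

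No gene of thyroid function passed the threshold in L629F cells. Of 26 listed, 20 had a named probe set and 13 passed the filter. Their median change was -0.09, with 2 higher and 3 lower at an unadjusted p under 0.05 (over all genes 3.72% and 4.46%). Slc5a5, the gene of the sodium-iodide symporter, through which cells take up iodide, had signals of 1980 and 2761 without iodide and 1027 and 2149 with it. The higher iodide value exceeded the lower chloride value, so the groups overlapped, and the change was -0.64 ± 0.29 (adjusted p = 0.606). In wild type receptor cells it was -1.40, which did not pass the threshold there either. The difference between the lines did not pass for any gene of this list (smallest adjusted p 0.994, limma). Aqp4, a water channel, had the largest difference of the list: 652 and 763 without against 326 and 353 with iodide (change -0.98 ± 0.19, adjusted p = 0.121). A dimmer probe set of Aqp4 gave only -0.18. In wild type cells the change of Aqp4 was -1.17 on the brighter probe set, which passed the threshold there (adjusted p = 0.0211, limma).

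Among the transcription factors of the thyroid, Hhex read 11381 and 11039.8 without iodide and 14611 and 13793 with it, and Foxe1 5014 and 5422 without and 6255 and 6714 with it. Both iodide pairs were the higher ones, with changes of 0.34 and 0.31 (adjusted p = 0.479 and 0.540). For Nkx2-1 the change was 0.19. For Pax8 it was 0.01, and -0.17 on its other probe set, so no direction can be given. Tg, the gene of thyroglobulin, the protein on which thyroid hormone is made, had 15811 and 16582 without iodide and 13609 and 13929 with it on its brighter probe set (change -0.23, adjusted p = 0.692). Its other probe set went the opposite way, from 6662 and 7724 to 7763 and 11052, a change of 0.37. Duox2, an oxidase that supplies hydrogen peroxide, had a change of -0.33 and the rat Tshr one of -0.39. The changes were -0.31 and 0.38 for the deiodinases Dio1 and Dio3, 0.16 for the chloride channel Ano1 and -0.09 for the potassium channel subunit Kcne2. Iyd, which recovers iodide from iodotyrosines, read 172 and 88.6 without iodide and 14.9 and 17.6 with it, too dim on average to be tested. The apical transporter gene Slc26a4 was also too dim, at 47.5 to 143.8.

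**Figure D4:**
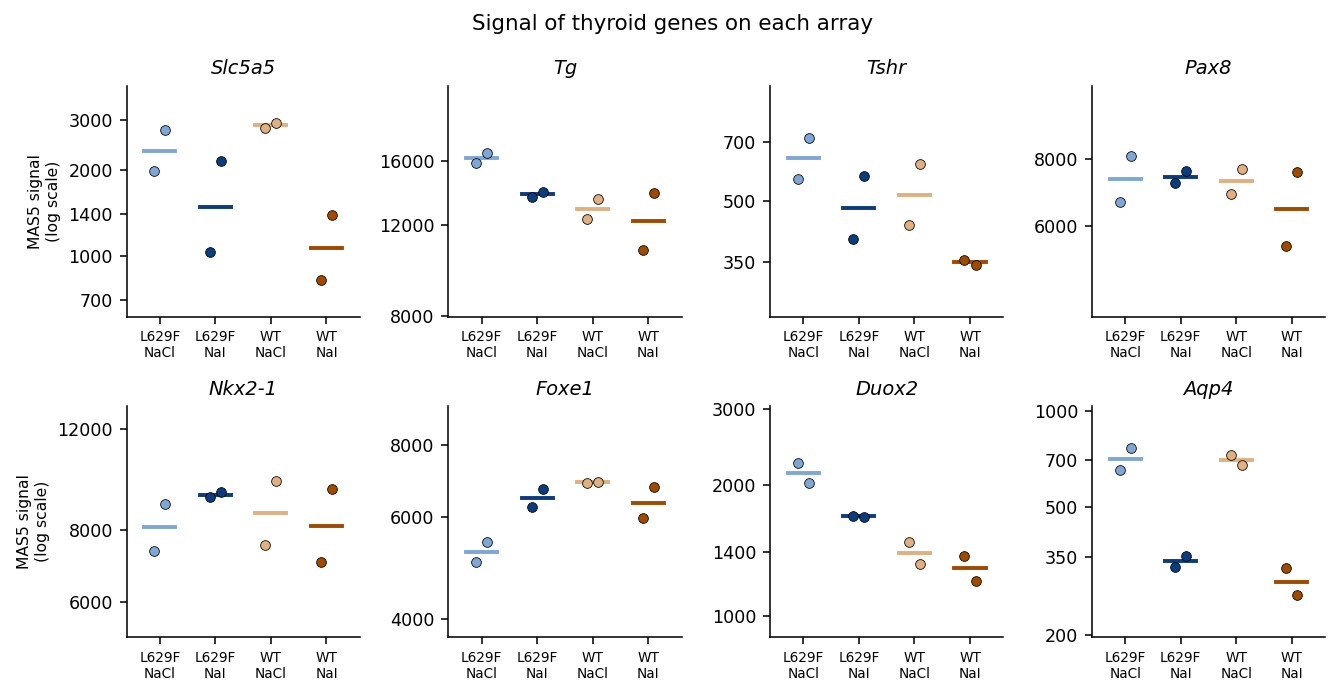
MAS5 signal (log scale) of 8 thyroid genes on each of the 8 arrays, with 2 points per group and a bar at their geometric mean. In L629F cells (blue) Aqp4 is lower on both iodide arrays (326 and 353 against 652 and 763), while the groups of Slc5a5, Tshr and Pax8 overlap.

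The wild type receptor cells were measured on arrays of their own. Their comparison shares the estimate of spread, the pseudocount, the filter on dim probe sets and the choice of probe set per gene. In wild type cells 38 genes were lower (0.378%) and 8 higher (0.0796%) at an adjusted p under 0.05. Of these 46, 45 had the same direction in L629F cells (97.8%, against 60.6% of all genes). For 43 of them the L629F groups were separate in that direction (over all genes 18.5% lower and 20.2% higher). In L629F cells 6 were called too (over all genes 0.0796% lower and 0.00995% higher): Thrsp, Scd, Lamb3, Smtnl2, Tnnt2 and Gcg. The 6 are 13.0% of the wild type list and 66.7% of the L629F list. Across all 10046 genes the changes in the 2 lines correlated at a Pearson r of 0.30 and a Spearman rho of 0.29, over genes that are not independent of each other. The 38 genes lower in wild type cells had a median change of -1.01 there and of -0.65 in L629F cells, and the 8 higher genes 0.87 and 0.63. The change was smaller in L629F cells for 42 of the 46. A list chosen for large changes in one line favours that line, and of the 9 genes called in L629F cells 7 had the smaller change in wild type cells. In wild type cells the GAPDH ratio was 1.22 and 1.55 on the chloride arrays and 1.40 and 3.13 on the iodide arrays. Wild type iodide replicate 2 also had the highest ratio of the 8 arrays for beta-actin (9.15) and hexokinase (10.8). The part of RNA integrity in the agreement between the lines was not tested.

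A difference between the lines in the iodide response was tested directly, and no gene passed (0% of 10046, smallest adjusted p 0.447, limma). At an unadjusted p under 0.05 there were 420 genes, fewer than the 502.3 expected by that level alone. The median SE of this difference was 0.29. Even differences of 1.86 and -1.42 did not pass, as given below, so a count of 0 does not show equal responses. The gene of smallest p was Pip5k1a, a kinase that makes a membrane phosphoinositide, and it was the 1 of the 46 with opposite directions. Its signals were 359 and 296 without iodide and 441 and 486 with it in L629F cells, against 539 and 410 without and 157 and 157 with it in wild type cells. The difference, L629F minus wild type, was 1.86 with a 95% interval of 1.18 to 2.54, unadjusted for the number of genes. Aplp2, with 1.21, was the next, but its probe sets disagreed: on a dimmer one the change was -1.16 in L629F and -1.01 in wild type cells. Zswim8 had 1.00 on 1 of its 3 probe sets. On the lower side the 3 genes of smallest p were Pin4 (-1.42), Mtif2 (-1.18) and Cyfip1 (-0.78), and none had an adjusted p under 0.994.

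Among the 9 genes called in L629F cells, Acsl1 alone had an interval of the difference that left out 0. Its change was -0.90 in L629F and -0.27 in wild type cells, a difference of -0.63 (95% interval -1.05 to -0.22, adjusted p = 0.994). On its dimmer probe set the changes were closer, -0.73 and -0.41. Without iodide the signals of the brighter probe set already differed between the lines: 3787 and 3747 in L629F against 2256 and 2425 in wild type cells. With iodide both lines lay between 1867 and 2134. For Gcg the difference was 0.41 (-0.01 to 0.82), for Thrsp 0.42 (-0.06 to 0.89) and for Scd 0.41 (-0.26 to 1.08), so that Thrsp and Scd fell at least as far in wild type cells by the point estimate, with intervals that include 0. For Abca1 it was -0.27 (-0.72 to 0.17) and for Lamb3 -0.12 (-0.72 to 0.49). Junb and RT1-Da, with changes of 0.44 and 0.12 in wild type cells, differed by -1.71 and -1.01, and neither difference passed (adjusted p = 0.994 for each). For Junb the mean L629F iodide signal was 37.8, below the filter limit of 65.4.

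**Figure D5:**
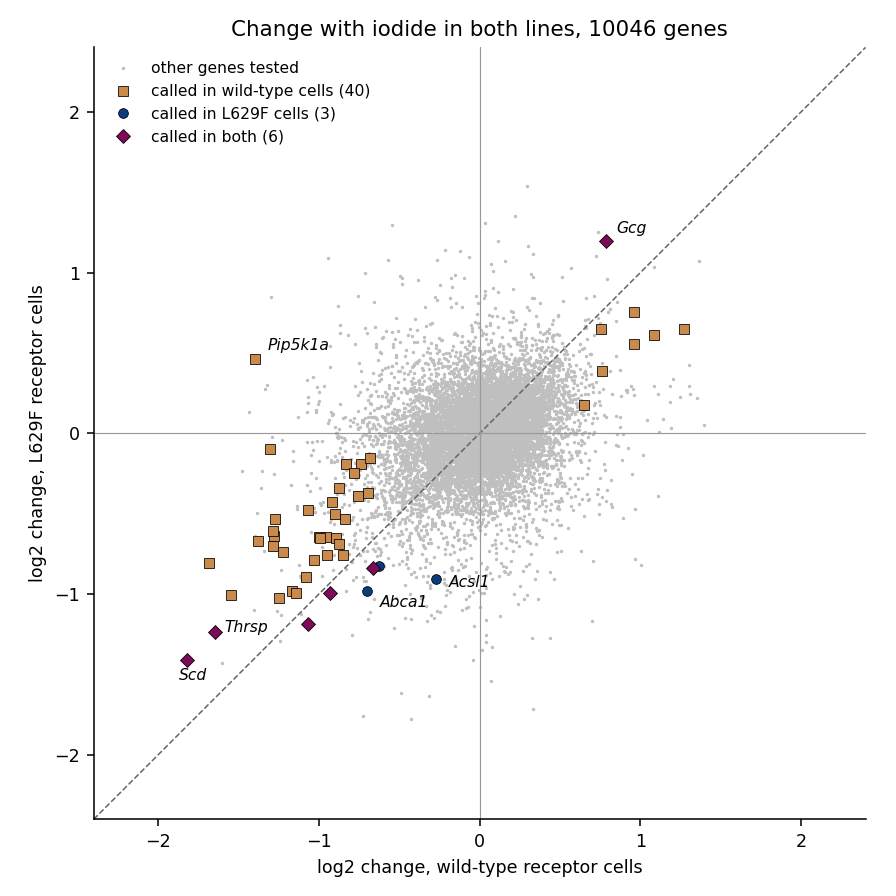
Log2 change with iodide of each of 10046 genes in wild type receptor cells (horizontal) and L629F receptor cells (vertical), with the line of equal change dashed. Of 46 genes called in wild type cells, 45 lie on the same side of 0 in both lines, and Pip5k1a at upper left is the exception; 6 genes (diamonds) were called in both lines.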

How the data were processed

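Labelled cRNA from total RNA was measured on 1-colour Affymetrix arrays for rat (per the labels' protocols). The deposited intensity values, 1 per probe set and array on a linear scale, came from MAS5 (per the submitters' processing notes), with version and scaling not given in the sources used here. The mean of each array without its lowest and highest 2% lay at 500.2, so the arrays had been scaled before deposit. Symbols came from the platform annotation, updated through gene identifiers to GRCr8: 20826 of 31042 non-control probe sets had 1 symbol, 436 several and 9780 none. The lowest 40% by mean log2 signal (below 65.4) were left out, 4704 of the 18625 kept lacked a single symbol, and the brightest kept probe set stood for each gene. The pseudocount, the 25th percentile of all signals, understates changes of dim genes. Limma 3.58.1 in R 4.3.3 (eBayes with an intensity trend, two-sided) fitted all 8 arrays with 1 coefficient per group (4 residual and 9.45 prior degrees of freedom). The number of arrays limits the precision (median SE 0.20). The fit was tested on simulated data. Tables and figures used the R package data.table, version 1.17.8, and pandas 2.3.3 and matplotlib 3.10.9 in Python 3.11.15.

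The genes and gene lists were chosen with earlier results of these data known. Genes are named as the largest changes past the threshold with separate groups, filled up to 10 a direction by smallest p, the thyroid list, up to 4 members of smallest p from other lists, and the 3 of smallest p per direction for the difference between lines. Srebf1, Srebf2, Fasn, Acaca, Acsl5, Nr1h2 and Nr1h3 were added after their values had been seen.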

Additional observations from a re-analysis of the deposited data

How the results depend on the processing

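The 9 genes called in L629F cells became 4 without the filter on dim probe sets, 14 after quantile scaling (3 higher, 11 lower), 2 when each array was centred on its median over all probe sets, and 3 with all 31042 probe sets on plain log2. They became 0 without the intensity trend (767 genes at an unadjusted p under 0.05), 30 with the GAPDH ratio as a covariate and 3 from the 4 L629F arrays alone. Leaving out 1 array gave 0 to 9. The other alternatives gave 6 to 13, apart from the replicate block below. Of 15 alternatives, Gcg and Thrsp passed in 14, Scd and Abca1 in 11, Acsl1 and Tnnt2 in 10, Lamb3 in 8, Cpe and Smtnl2 in 7; each kept its direction in all of them. The cause of these moves was not tested.

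Replicate numbers recur in the groups, but deviations of same-numbered arrays correlated at only 0.05 to 0.23, so the numbers were not taken as a pairing. With the replicate number as a block, 59 genes passed in L629F cells (7 higher, 52 lower), among them all 9, and 230 in wild type cells. The wild type count of 46 became 15 without the filter, 24 centred on all probe sets, 0 without the trend (1064 at an unadjusted p under 0.05) and 195 with the GAPDH covariate, and 0 to 42 with 1 array left out; these settings were added after seeing the data. The count of genes that differed between the lines was 0 in each alternative run.

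Signs turned for single genes that had not passed. Pax8 had -0.11 after quantile scaling, -0.077 with the mean of its probe sets, -0.15 with the GAPDH covariate and -0.13 to 0.15 with 1 array left out. With the mean of probe sets Tg had 0.067, Man2b1 0.22 and Scap -0.044, and Dio3 ranged from -0.13 to 0.89 with 1 array left out. The list medians given in the text kept their sign in all 23 settings, except that of the insulin-like growth factor axis. Dim probe sets limit what could be tested.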

Other observations

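Growth factor genes outside the groups above gave few signals, and none passed the threshold. Of 17 listed genes of the insulin-like growth factor axis, 12 were tested, with a median of 0.06 whose sign held in 17 of 23 settings. At an unadjusted p under 0.05, 1 was higher and 2 were lower (over all genes 3.72% and 4.46%). Igfbp5, which encodes a secreted binding protein of these factors, had signals of 702 and 1072 without iodide and 361 and 601 with it. The groups were separate by a narrow margin (change -0.85 ± 0.25, adjusted p = 0.334), and dimmer probe sets of Igfbp5 gave -0.38 and -0.04. For the receptor gene Igf2r the change was -0.53 and for Irs2, an adaptor of insulin signalling, 0.38. Of the EGF family and its regulators 11 were tested, with a median of 0.15. Besides Areg, Errfi1, an inhibitor of EGF receptors, had a change of -0.65 (adjusted p = 0.459) and the ligand gene Nrg1 one of 0.37.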
